A study of Mus musculus with 9 samples.

Results

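Transcripts of 9 myeloid C-type lectin receptor genes were examined in F4/80+ CD11b+ macrophages sorted by flow cytometry from injured mouse liver. The 9 genes, Clec7a, Clec4n, Clec4d, Clec4e, Clec5a, Clec4a1, Clec4a2, Clec4a3 and Clec12a, were taken by symbol from a table of 59445 features. Each matched exactly 1 feature, and each was among the 15288 features tested, those that reached 10 normalized reads in 4 or more libraries. The compared groups were 5 MAGL Mye-/- animals (libraries S8 to S12) and, as controls, 4 MAGL fl/fl animals (S1, S3, S4 and S5), all male C57BL/6. Mgll encodes monoacylglycerol lipase (MAGL), and the comparison addresses how its deficiency in myeloid cells alters liver macrophages during acute injury. Every mouse of both groups had received 1 intraperitoneal injection of carbon tetrachloride (CCl4), a liver toxin, 24 hours earlier, labelled as 0.6 mg/kg, a unit that could not be checked and may be wrong, since this agent is often dosed by volume. Age was 10 weeks in 3 and 11 weeks in 2 of the MAGL Mye-/- mice, and 11 weeks in all 4 MAGL fl/fl mice. No source used here gives the Cre driver behind the Mye-/- label, and with no uninjected group the response to CCl4 itself was not measured.

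C-type lectin receptors are membrane proteins through which macrophages, monocytes and neutrophils recognise sugars and lipids of microbes and products of dying cells. Dectin-1 (Clec7a) carries its own tyrosine signalling motif, whereas Dectin-2 (Clec4n), MCL (Clec4d) and Mincle (Clec4e) signal through the adaptor FcRgamma (Fcer1g) and CLEC5A (Clec5a) through the adaptor DAP12 (Tyrobp). These activating receptors engage the kinase SYK and the CARD9, BCL10 and MALT1 complex to switch on cytokine genes. DCIR (Clec4a2) and MICL (Clec12a) instead carry inhibitory motifs that recruit the phosphatases SHP-1 (Ptpn6) and SHP-2 (Ptpn11).

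All 9 genes lie on chromosome 6 (mm10). Clec4a1, Clec4a3, Clec4a2, Clec4n, Clec4d and Clec4e form a cluster between 122921848 and 123289871, a span of 368024 bases. Clec12a (129350244 to 129365303) and Clec7a (129461591 to 129472779) lie within 122536 bases of each other, and Clec5a stands alone at 40574898 to 40585822. Clec4d on the plus strand and Clec4e on the minus strand point toward each other, with 6519 bases between them. Clec7a and Clec5a are also on the minus strand, and the other 5 genes are on the plus strand (GENCODE M21).

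The sequences before the start sites of Clec7a and Clec5a are shown because these 2 genes lay at the upper and lower ends of the difference between genotypes, and that of Clec4e because it had the most reads of the family on average. They are the 250 bases upstream of the RefSeq start site (GRCm38.p6, the assembly of mm10), each given 5′ to 3′ on its gene's minus strand, at chr6:129472780-129473029 for Clec7a, chr6:40585806-40586055 for Clec5a and chr6:123289872-123290121 for Clec4e. Capitals mark GAGGAA or its reverse complement TTCCTC, the core of sites bound by the myeloid factor PU.1.
Clec7a: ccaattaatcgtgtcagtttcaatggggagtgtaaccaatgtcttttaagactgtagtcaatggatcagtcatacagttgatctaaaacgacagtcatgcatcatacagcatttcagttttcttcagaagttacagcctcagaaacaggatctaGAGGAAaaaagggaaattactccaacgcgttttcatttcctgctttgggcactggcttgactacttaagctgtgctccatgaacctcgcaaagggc
Clec5a: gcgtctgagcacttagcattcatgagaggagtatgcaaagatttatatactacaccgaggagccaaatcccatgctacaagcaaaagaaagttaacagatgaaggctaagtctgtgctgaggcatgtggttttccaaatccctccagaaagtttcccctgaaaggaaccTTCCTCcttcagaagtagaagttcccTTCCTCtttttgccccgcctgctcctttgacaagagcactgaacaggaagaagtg
Clec4e: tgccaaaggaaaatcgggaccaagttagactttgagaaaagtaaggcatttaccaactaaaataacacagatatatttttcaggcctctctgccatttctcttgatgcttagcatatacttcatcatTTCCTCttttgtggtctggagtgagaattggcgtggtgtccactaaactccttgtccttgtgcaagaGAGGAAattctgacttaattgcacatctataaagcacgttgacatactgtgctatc
The marked letters began 96 bases before the start site in Clec7a, 81 and 55 bases before it in Clec5a, and 123 and 56 bases before it in Clec4e. GAGGAA on either strand occurred in the upstream windows of 6 of the 8 matched genes, against 23.3% of 32817 RefSeq windows of the same length. The 6 were Clec7a, Clec5a, Clec4e, Clec4d, Clec4a1 and Clec12a. TTNCNNAA, a loose form of the C/EBP site, was in 5 of the 8 on either strand and in 36.8% of all windows, and TGANTCA, the AP-1 site, in 1 of the 8 (Clec12a) and in 6.75% of all windows. Matches of the 3 motifs can overlap, and a match describes letters and not binding. Clec4n had no entry in the sequence table.

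The family was well expressed. Each member had between 1672 and 31397 reads in every library, and together they took 0.201% to 0.246% of reads in MAGL Mye-/- libraries and 0.186% to 0.222% in MAGL fl/fl libraries. Levels between genes were compared as normalized reads per kilobase of the longest coding transcript. Clec4d was highest, at a mean of 12001 ± 2458 per kb in MAGL Mye-/- and 10307 ± 2377 per kb in MAGL fl/fl (SD, n = 5 and 4). Clec4e followed at 8457 ± 2289 and 7213 ± 1919 per kb, Clec4a1 at 6985 ± 1289 and 7129 ± 1321 per kb, and Clec4a3 at 6959 ± 1183 and 6401 ± 917 per kb, each given for MAGL Mye-/- and then MAGL fl/fl. These 3 exchanged places between libraries and their ranges overlapped, and in S3 Clec4e also passed Clec4d. Clec4d held rank 1 or 2 in every library.

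A lower tier held Clec4a2 at 3341 ± 511 per kb in MAGL Mye-/- and 3398 ± 419.8 in MAGL fl/fl, Clec7a at 3043 ± 337 and 1972 ± 449, Clec4n at 2746 ± 539 and 2132 ± 587, and Clec12a at 2215 ± 286 and 2579 ± 599.9, in the same order of groups. Clec7a held rank 5 to 8 among the 9 depending on the library. Clec5a was lowest in all 9 libraries, at 615 ± 162 per kb in MAGL Mye-/- and 795 ± 70.1 in MAGL fl/fl. With the summed length of all annotated exons in place of the coding transcript, Clec4e moved from rank 2 to rank 4 and the other 3 of the upper tier kept their order. No source used here gives the lengths of the authors' own gene models.

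**Figure D1:**
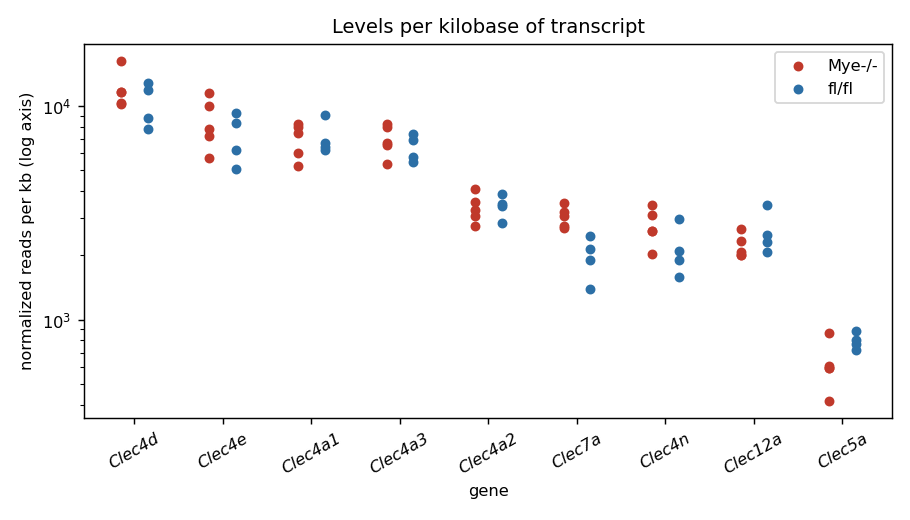
Normalized reads per kilobase of the longest coding transcript for the 9 genes (log axis), 1 point per library, MAGL Mye-/- left of MAGL fl/fl within each gene. Clec4d stands highest on average and Clec5a lowest in all 9 libraries, and Clec7a is the gene whose 2 groups do not overlap.

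Clec7a, the receptor for fungal beta-glucan, showed the largest difference of the family between genotypes. Its normalized values were 8013, 6273, 7297, 6923 and 6143 reads in MAGL Mye-/- S8 to S12, against 3178, 5602, 4317 and 4864 reads in MAGL fl/fl S1, S3, S4 and S5. All 5 MAGL Mye-/- values lay above all 4 MAGL fl/fl values, with S1 the lowest control and S3 the highest. The means were 6929.7 ± 768 and 4490.4 ± 1021 (SD, n = 5 and 4), a log2 fold change of 0.65 ± 0.16 (SE; 95% interval 0.32 to 0.98), or 1.57-fold. Clec7a ranked 46 of 15288 features by p and did not pass the test over all features (limma adjusted p = 0.218), nor did it in edgeR on whole reads (adjusted p = 0.280), which called 0.0131% of all features. DESeq2 on the same reads called it as higher (log2 fold change 0.62, adjusted p = 0.0223). Without S1 the log2 fold change was 0.49, the lowest of the 24 alternatives, and without S3 it was 0.77, the highest. Among 11-week-old mice alone, with 2 MAGL Mye-/- and 4 MAGL fl/fl libraries, it was 0.67 (limma adjusted p = 0.976).

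**Figure D2:**
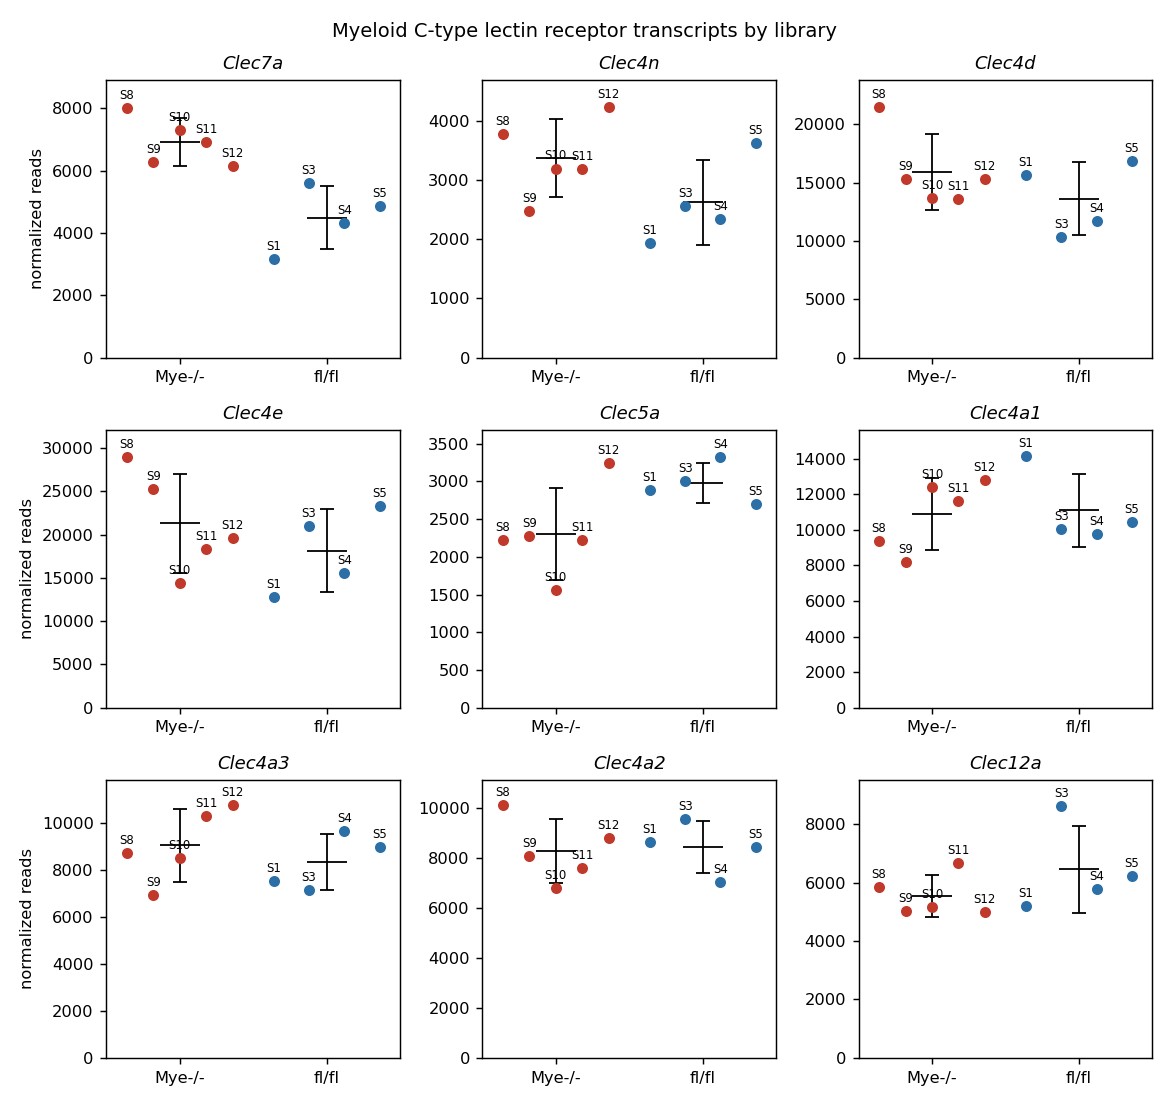
Normalized reads of each gene in every library, with MAGL Mye-/- (S8 to S12) left of MAGL fl/fl (S1, S3, S4, S5); bars give the mean and SD, and each axis starts at 0. Groups separate for Clec7a alone, where MAGL Mye-/- libraries hold 6143 to 8013 reads and MAGL fl/fl libraries 3178 to 5602.

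None of the 9 genes passed an adjusted p of 0.05 with limma, beside 0.0196% of all features tested (3 of 15288). Unadjusted p was under 0.05 for 1 gene as higher, Clec7a, where 6.38% of all features were so, and for 1 gene as lower, Clec5a, where 4.13% were so. Clec7a was also the 1 gene of 9 with groups that did not overlap, and it lay above; among all features 1.7% had every MAGL Mye-/- value above every MAGL fl/fl value, and 3.3% had groups apart in either direction. DESeq2 called 1 of the 9, against 2.12% of the 5801 features to which it gave an adjusted p. By fold change 5 of the 9 were higher and 4 lower, and their median log2 fold change was 0.11, against 0.06 over all features, of which 54.6% were higher. The members and lists were chosen with earlier results of these data known.

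**Figure D3:**
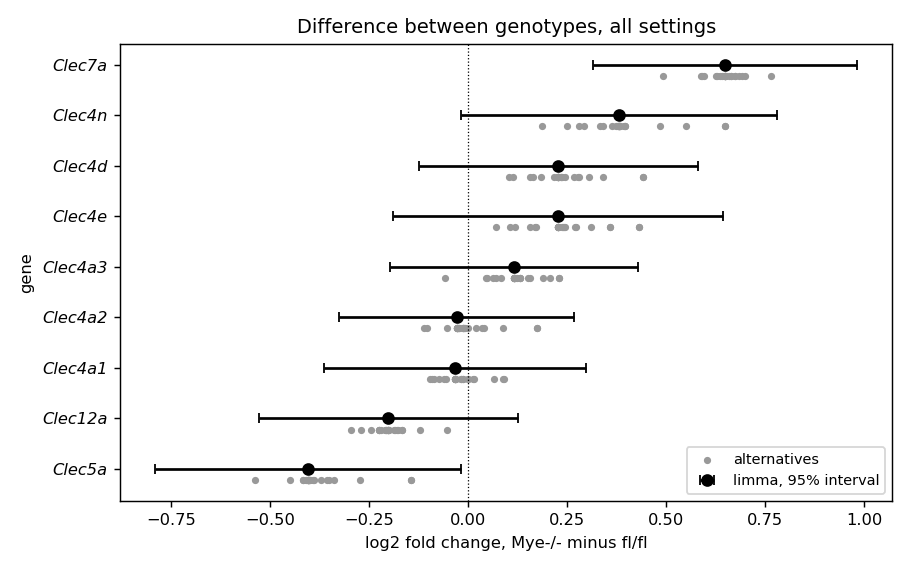
Log2 fold change of each gene, MAGL Mye-/- minus MAGL fl/fl, from limma with its 95% interval (black) and under the 24 alternative settings (grey). In every setting drawn Clec7a, Clec4n, Clec4d and Clec4e lie above 0 and Clec5a and Clec12a below 0, while Clec4a1, Clec4a2 and Clec4a3 fall on both sides.

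Among the receptors that pair with FcRgamma, Clec4n, the Dectin-2 receptor for fungal mannans, had 3781, 2483, 3193, 3186 and 4229 normalized reads in MAGL Mye-/- S8 to S12, against 1940.5, 2566, 2346 and 3631 in MAGL fl/fl S1, S3, S4 and S5. The groups overlapped, with MAGL Mye-/- S9, S10 and S11 inside the control range and MAGL fl/fl S3 and S5 inside the MAGL Mye-/- range. The log2 fold change was 0.38 ± 0.19 (SE; 95% interval -0.02 to 0.78; limma adjusted p = 0.493). It was 0.25 without S1, 0.19 without both S1 and S3, and 0.65 among 11-week-old mice, where the adjusted p was 0.976.

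Clec4e encodes Mincle, a receptor for mycobacterial glycolipid that also binds the nuclear protein SAP130 released by dead cells. It had 28917, 25224, 14394, 18306 and 19631 normalized reads in MAGL Mye-/- S8 to S12, against 12745, 21042, 15613 and 23252.5 in MAGL fl/fl S1, S3, S4 and S5. S8 and S9 stood above every control, S10 lay below 3 of the 4, and the groups overlapped. Its coefficient of variation was 27.1% in MAGL Mye-/- and 26.6% in MAGL fl/fl. The log2 fold change was 0.23 ± 0.20 (SE; 95% interval -0.19 to 0.64; limma adjusted p = 0.720). It was 0.07 without S1, 0.11 without S8, 0.15 without S9, 0.36 without S5 or S10, and 0.43 when age entered the fit or in the 11-week-old mice alone.

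Clec4d, whose product MCL forms pairs with Mincle, had 21491, 15324.5, 13668, 13571.5 and 15332 normalized reads in MAGL Mye-/- S8 to S12, against 15679, 10300.3, 11680.4 and 16884 in MAGL fl/fl S1, S3, S4 and S5. S8 stood above every other library, and the remaining 4 MAGL Mye-/- values lay within the range of the controls. The log2 fold change was 0.23 ± 0.17 (SE; 95% interval -0.12 to 0.58; limma adjusted p = 0.662), and 0.11 without S8 or 0.10 without S3. It was 0.34 without S5 and 0.44 when age entered the fit or in the 11-week-old mice alone. Although Clec4d and Clec4e are neighbours, the correlation of their log2 values over the 9 libraries was 0.45.

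Clec5a, the DAP12-coupled receptor known for binding dengue virus, pointed the other way. It had 2218, 2280.0, 1555, 2218 and 3246 normalized reads in MAGL Mye-/- S8 to S12, against 2887.5, 3004, 3321 and 2695 in MAGL fl/fl S1, S3, S4 and S5. Of the 5 MAGL Mye-/- libraries 4 lay below all controls, and S12 lay among them. The log2 fold change was -0.40 ± 0.18 (SE; 95% interval -0.79 to -0.02; limma adjusted p = 0.456). It was -0.15 when age entered the fit and in the 11-week-old mice alone, where S12 was 1 of 2 MAGL Mye-/- libraries, -0.27 without S10 and -0.54 without S12.

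Of the inhibitory receptors, Clec12a, which encodes MICL, a receptor for uric acid crystals, had 5863, 5019.5, 5172, 6657 and 4995 normalized reads in MAGL Mye-/- S8 to S12, against 5201, 8616, 5779.5 and 6210.2 in MAGL fl/fl S1, S3, S4 and S5. S3 stood above the other 8 libraries, and the groups otherwise overlapped. The log2 fold change was -0.20 ± 0.16 (SE; 95% interval -0.53 to 0.12; limma adjusted p = 0.682), and -0.05 without S3.

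Clec4a2, which encodes the inhibitory receptor DCIR, ranged over 6803 to 10141 normalized reads in MAGL Mye-/- (median 8083) and 7048 to 9568 in MAGL fl/fl, a log2 fold change of -0.03 with a 95% interval of -0.33 to 0.27 (limma adjusted p = 0.962). Clec4a1 and Clec4a3, close relatives of DCIR with less well known ligands, had intervals of -0.36 to 0.30 (log2 fold change -0.03) and -0.20 to 0.43 (log2 fold change 0.11). Clec4a1 ranged over 8178 to 12812 normalized reads in MAGL Mye-/- and 9748 to 14164 in MAGL fl/fl, with S1 the highest of all libraries. Clec4a3 ranged over 6924 to 10762.5 in MAGL Mye-/- and 7134 to 9641 in MAGL fl/fl. The groups overlapped for all 3 genes, and the sign of their fold change turned in 12 of their values under the alternatives.

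Reads of close copies can be exchanged between genes, so shared words of 50 bases were counted in the longest coding transcripts. In Clec4a2 8.76% of them occurred in transcripts of another gene, Clec4a4 first, and in Clec4n 0.932% did so, while the other 7 genes shared none. Clec4a4 itself had 9.64 to 56.6 normalized reads in MAGL Mye-/- and 2.39 to 67.6 in MAGL fl/fl, small beside Clec4a2. The values of Clec4a2 remain uncertain to that extent.

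Other genes lying between the members were at low levels. Within the Clec4 cluster, Clec4b1 had 206 to 314 normalized reads in MAGL Mye-/- and 134 to 473 in MAGL fl/fl, and Clec4b2 was at 0 in 3 of 5 MAGL Mye-/- libraries and in all 4 MAGL fl/fl libraries. Between Clec12a and Clec7a, Clec12b was at 0 in all 9 libraries, Clec9a, a receptor of cross-presenting dendritic cells, was at 0 in 3 of 5 MAGL Mye-/- and 4 of 4 MAGL fl/fl libraries, and Clec1a was detected in S3 alone. Clec1b, which encodes the platelet receptor CLEC-2, reached 171 normalized reads in MAGL Mye-/- S10 and 103 in MAGL fl/fl S4. All of these lay far below the lowest member, Clec4n or Clec5a depending on the library.

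Below the receptors, 24 of 25 adaptor and signalling genes were tested, of which 15 lay above 0 and 9 below; their median log2 fold change was 0.04, and that of all features 0.06. None passed the test over all features, and 4 had an unadjusted p under 0.05, all 4 of them higher, where 6.38% of all features were higher and 4.13% lower at that threshold. Syk, the kinase that binds the phosphorylated receptor motifs, had 12404, 11765, 12995, 12772 and 12603 normalized reads in MAGL Mye-/- S8 to S12, against 6579, 9924, 10135 and 10130.1 in MAGL fl/fl S1, S3, S4 and S5. Every MAGL Mye-/- value was above every control, where 1.7% of all features were so, and S1 was the lowest of all, as for Clec7a. The log2 fold change was 0.47 ± 0.14 (SE; limma adjusted p = 0.271; DESeq2 adjusted p = 0.0598).

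Prkcd, the protein kinase C delta that phosphorylates CARD9, had 37052, 42279.5, 42018, 41709 and 44827 normalized reads in MAGL Mye-/- S8 to S12, against 29707, 33998, 35505 and 33001 in MAGL fl/fl S1, S3, S4 and S5. These groups did not overlap either (log2 fold change 0.33 ± 0.13 SE; limma adjusted p = 0.374), and DESeq2 called Prkcd as higher (adjusted p = 0.0320). Malt1, the protease of the CARD9 complex, averaged 1927 ± 376 in MAGL Mye-/- and 1412 ± 247 in MAGL fl/fl (limma adjusted p = 0.434), Card9 13195 ± 2597 and 11081 ± 1745 (0.609), and Bcl10 6549 ± 687 and 7443 ± 2502 (0.815).

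Neither adaptor passed the test. Fcer1g, the partner of Dectin-2, MCL and Mincle, had 26792, 24068, 28131, 27803 and 28201 normalized reads in MAGL Mye-/- S8 to S12, against 41103, 29861, 29240 and 29079 in MAGL fl/fl S1, S3, S4 and S5. All MAGL Mye-/- values were below all controls, where 1.6% of all features were so, and S1 stood far above the other controls (log2 fold change -0.25 ± 0.14 SE; limma adjusted p = 0.545). Tyrobp, the partner of CLEC5A, averaged 74563 ± 8314 in MAGL Mye-/- and 69631 ± 12821 in MAGL fl/fl (adjusted p = 0.839). Of the 4 phosphatase genes below inhibitory receptors 2 were higher and 2 lower and none passed. Ptpn6 averaged 33219 ± 2434 in MAGL Mye-/- and 35427 ± 4618 in MAGL fl/fl, Inpp5d, which encodes SHIP-1, 13665 ± 1068 and 12302 ± 1356, and Ptpn11 1584 ± 241 and 1373 ± 304 (limma adjusted p = 0.853, 0.700 and 0.736).

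**Figure D4:**
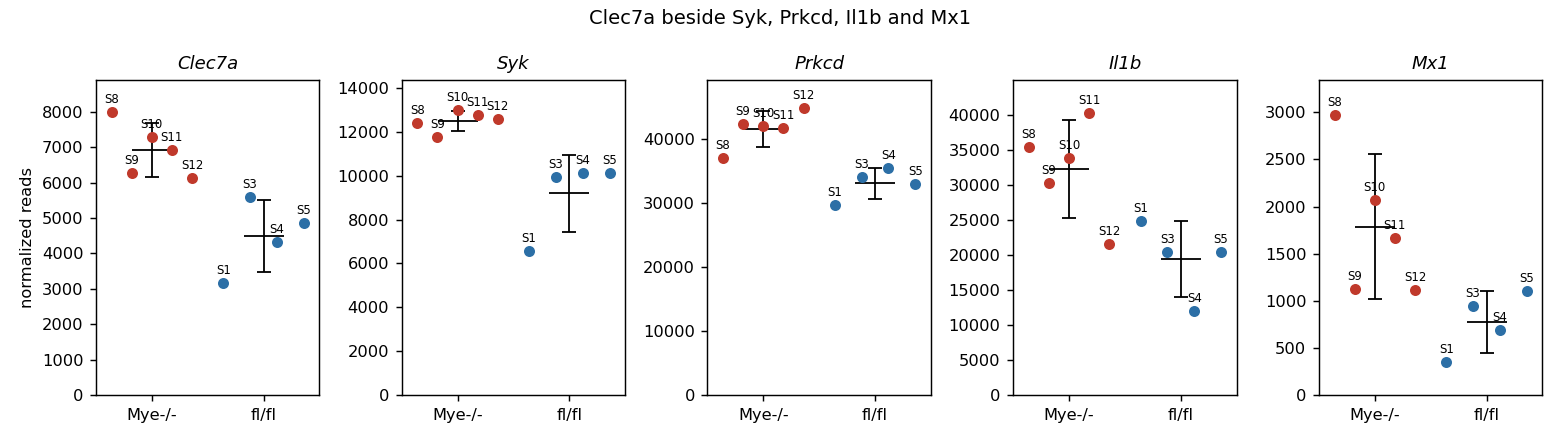
Normalized reads in every library of Clec7a, Syk, Prkcd, Il1b and Mx1, with MAGL Mye-/- left of MAGL fl/fl; bars give the mean and SD, and axes start at 0. Groups do not overlap for Clec7a, Syk and Prkcd, all with MAGL Mye-/- above, where 1.7% of all features were so. Mx1 was chosen for its likeness to Clec7a, so its separation follows from the search. It is also narrow, with MAGL Mye-/- S12 at 1113 and MAGL fl/fl S5 at 1103. For Il1b, MAGL Mye-/- S12, at 21485, lies among the controls.

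Of 19 genes for cytokines and enzymes that these receptors are known to induce, 15 were tested, of which 12 lay above 0 and 3 below; their median log2 fold change was 0.35, and that of all features 0.06. At an unadjusted p under 0.05, 2 were higher, where 6.38% of all features were. None passed over all features with limma. Il1b, the cytokine interleukin-1 beta, had 35366, 30271, 33822, 40229 and 21485 normalized reads in MAGL Mye-/- S8 to S12, against 24827, 20362, 11955 and 20382 in MAGL fl/fl S1, S3, S4 and S5. In 4 of 5 MAGL Mye-/- libraries it lay above all controls (log2 fold change 0.75 ± 0.20 SE; limma adjusted p = 0.218), and DESeq2 called it as higher (adjusted p = 0.0197). Ptgs2, the inducible prostaglandin synthase COX-2, averaged 18553 ± 3936 in MAGL Mye-/- and 13887 ± 5241 in MAGL fl/fl (limma adjusted p = 0.438). Il12a and Csf2 were at 0 in all 9 libraries.

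Among 45 other lectin-like receptors, 24 passed the filter on low values and 10 were at 0 in every library. Of the 24, 14 were higher and 10 lower; none passed the test, and their median log2 fold change was 0.27. An unadjusted p under 0.05 was reached by 5 as higher and 2 as lower, where 6.38% and 4.13% of all features did so. Of the higher ones, Clec4f and Colec12 met the filter through MAGL Mye-/- libraries alone, so their direction was partly set by it. Clec10a, a galactose-binding lectin of macrophages and dendritic cells, averaged 925 ± 289 in MAGL Mye-/- and 1536 ± 221 in MAGL fl/fl (log2 fold change -0.77 ± 0.23 SE; limma adjusted p = 0.271), with MAGL Mye-/- S11 at 1387 inside the control range. Siglec1, a sialic acid receptor of resident macrophages listed with them, had 1406, 354, 1016, 716 and 485 normalized reads in MAGL Mye-/- S8 to S12, against 146, 272, 301 and 317 in MAGL fl/fl S1, S3, S4 and S5, without overlap (2.84-fold; 95% interval of the log2 fold change 0.65 to 2.35; limma adjusted p = 0.218). Of 7 genes listed for self ligands or proteins released by damaged cells, 3 were higher and 4 lower and none passed. Sap130, among the lower ones (log2 fold change -0.12), was listed by its symbol alone. It was not checked against the SAP130 that Mincle binds, so the gene of that ligand may not be among the 7. Hmgb1 averaged 3985 ± 498 in MAGL Mye-/- and 4975 ± 649 in MAGL fl/fl (limma adjusted p = 0.454), and Alb 2176 ± 2753 and 746 ± 389.5 (0.484), with 7085 in MAGL Mye-/- S10.

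The 9 genes did not move as 1 block between libraries. Correlations of log2 values over the 9 libraries ran from -0.74 (Clec4a1 and Clec4e) to 0.69 (Clec4n and Clec7a) over 36 pairs, with a median of 0.09, and 22 were above 0. Clec7a and Clec12a had 0.06 over all libraries and 0.77 after the mean of each genotype was removed. The libraries share their genotype and handling, so these values are descriptions.

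For each member the most similar profiles were sought among 6754 other named features whose mean reached 500, so high values follow from the search. The first and second reached 0.88 to 0.99 over 9 libraries. For Clec7a they were Mx1, an antiviral GTPase, at 0.96, and the feature of the small nucleolar RNA Snora81 at 0.95. Mx1 had 2967, 1119.9, 2072, 1662 and 1113 normalized reads in MAGL Mye-/- S8 to S12, against 346, 946, 693 and 1103 in MAGL fl/fl S1, S3, S4 and S5, with S8 highest and S1 lowest as for Clec7a. For Clec4e they were Zfp800 and Pnpt1, for Clec4d the lipid droplet gene Plin2 and the endotoxin receptor gene Tlr4, and for Clec4n Ehd4 and Cnot7. For Clec5a they were Ruvbl1 and Eif3c, for Clec12a Lyrm2 and 1500011K16Rik, for Clec4a1 Gltp and Naif1, for Clec4a2 Emp3 and Mrpl4, and for Clec4a3 Abi1 and Prkch.

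The sorted cells carried their gate's markers, with Itgam (CD11b) at 42570.5 to 54211 normalized reads in MAGL Mye-/- and 41570.4 to 55473.5 in MAGL fl/fl, and Adgre1 (F4/80) at 5428 to 7801 and 4685 to 6178. Mgll had 30.4, 46.6, 5.93, 42.7 and 0 normalized reads in MAGL Mye-/- S8 to S12, against 18.6, 0, 106.5 and 22.8 in MAGL fl/fl S1, S3, S4 and S5 (two-sided exact permutation p = 0.730), too low in both groups for a check of the genotype labels. Library totals ran from 35691354 to 46489349 reads in MAGL Mye-/- and from 33383559 to 43884866 in MAGL fl/fl. Features with at least 1 read numbered 15614 to 16802 in MAGL Mye-/- and 14240 to 16385 in MAGL fl/fl, and the mitochondrial chromosome took 3.93% to 7.09% and 3.49% to 9.45% of reads.

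Markers of other cell types that the sort could hold were read from lists. Summed over 11 neutrophil genes, MAGL Mye-/- libraries held 14886 to 38965 normalized reads and MAGL fl/fl libraries 28545 to 49441, mostly S100a8. Of the 6 tested, 2 were higher and 4 lower. At an unadjusted p under 0.05, 2 were lower, S100a8 and S100a9, where 4.13% of all features were. S100a9 averaged 2841 ± 2327 in MAGL Mye-/- and 5906 ± 1444 in MAGL fl/fl (0.403-fold; limma adjusted p = 0.218, DESeq2 adjusted p = 0.294), and S100a8 17455 ± 6352 and 30191 ± 8906 (0.570-fold; limma adjusted p = 0.267, DESeq2 adjusted p = 0.180). MAGL Mye-/- S9 lay among the controls for both genes, and S8 for S100a8. Mmp8, also well expressed, averaged 5170 ± 1681 in MAGL Mye-/- and 5122 ± 1624 in MAGL fl/fl (0.993-fold, limma adjusted p = 0.993). Ly6g was at 0 in 5 of 5 MAGL Mye-/- and 3 of 4 MAGL fl/fl libraries, and Cxcr2 reached 58.8 and 86.4 at most. Summed over 8 dendritic cell genes, MAGL Mye-/- libraries held 449 to 1340 normalized reads and MAGL fl/fl libraries 239 to 560.0. Of the 4 tested genes 3 were higher and 1 lower, and Xcr1 and Siglech were at 0 in all 9 libraries. At an unadjusted p under 0.05, 1 was higher, Flt3, where 6.38% of all features were. Flt3 averaged 610 ± 280 in MAGL Mye-/- and 253 ± 178 in MAGL fl/fl (2.59-fold, limma adjusted p = 0.299). Summed over 6 Kupffer cell genes, the libraries held 205 to 1821 in MAGL Mye-/- and 7.16 to 512 in MAGL fl/fl. All 4 tested were higher, 3 of them at an unadjusted p under 0.05 (Clec4f, Cd5l and Marco), where 6.38% of all features were. Timd4 was at 0 in 8 of 9 libraries. Clec4f had 33.3 to 603 normalized reads in MAGL Mye-/- and was at 0 in 3 of 4 MAGL fl/fl libraries (limma adjusted p = 0.273). Over 7 hepatocyte genes the sums were 1103 to 11221 and 536 to 1837.5. All 6 tested were higher, 3 of them at an unadjusted p under 0.05 (Ttr, Fgg and Hpx), where 6.38% of all features were. None of these genes passed with limma. Clec4f, Cd5l, Marco, Ttr and Fgg reached 10 normalized reads in 4 or more MAGL Mye-/- libraries but in fewer MAGL fl/fl ones. They met the filter on low values through MAGL Mye-/- alone, so their direction was partly set by it. Values at 0 also weigh heavily on the log scale. The unadjusted p of edgeR was 0.0618 for Clec4f and 0.172 for Ttr. S10 gave the top of the MAGL Mye-/- sums for both the Kupffer cell and the hepatocyte genes. The other 4 MAGL Mye-/- libraries held 205 to 803 for the Kupffer cell genes and 1103 to 1839.5 for the hepatocyte genes. Without S10 the log2 fold change of Clec7a was 0.63. The other MAGL Mye-/- libraries still held transcripts of both lists, so that fit does not test the part of such cells. Platelet and erythroid genes summed to 1966 to 4652 and 4645 to 25553, T and NK cell genes to 165 to 1569 and 158 to 1611, endothelial genes to 323 to 629 and 255 to 833, stellate cell genes to 0 to 50.4 and 0 to 208, B cell genes to 0 to 23.7 and 0 to 123, and eosinophil, basophil and mast cell genes to 0 to 100.03 and 28.8 to 201, each for MAGL Mye-/- and then MAGL fl/fl. The globin genes made up most of the platelet and erythroid sum. Hba-a1 averaged 1179.8 ± 311 in MAGL Mye-/- and 5488 ± 4558 in MAGL fl/fl without overlap (0.269-fold; limma adjusted p = 0.0832), and Hbb-bs 1585 ± 843 and 6395 ± 4866 with overlap (0.275-fold; limma adjusted p = 0.0950). DESeq2 called both as lower (adjusted p = 0.0106 for Hba-a1 and 0.0281 for Hbb-bs), while the platelet gene Pf4 averaged 236 ± 92.7 and 239 ± 103. Within the gate's own list of 8 genes, 6 were higher and 2 lower. At an unadjusted p under 0.05, 2 were lower, Lyz2 and Ly6c2, where 4.13% of all features were. Lyz2, the lysozyme gene of monocytes and neutrophils, was at 143570.0 to 204782 normalized reads in MAGL Mye-/- and 221530.0 to 422118 in MAGL fl/fl. Its groups did not overlap (limma adjusted p = 0.218), where 1.6% of all features had every MAGL Mye-/- value below every control. DESeq2 called Lyz2 as lower (adjusted p = 4.14e-05). The part of these cells in the difference of Clec7a was not tested, and in bulk samples fewer cells of a type and less RNA per cell cannot be told apart.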

How the data were processed

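RNA was sequenced from F4/80+ CD11b+ liver macrophages of 5 MAGL Mye-/- and 4 MAGL fl/fl mice. The authors deposited a single signal column per mouse, holding read counts per gene that DESeq had scaled by size factors, per the file headers; the submitters' processing notes name DESeq too. The values carry no log and no correction for gene length. STAR 2.4.0, SAMtools, Picard, FastQC and the build mm10 appear in those notes, and FAST DB gene models in the headers. How reads were counted, with which strand setting, and whether duplicates were removed is not given in the sources used here. Dividing each column by its smallest nonzero value gave whole reads for 100% of nonzero values, within 0.01 reads; edgeR called 2 features on these. No molecular identifiers were used, so reads are not separate molecules.

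The comparison was tested with limma (3.58.1, in R 4.3.3), with a trend of the variance on intensity, on log2(normalized value + 1) of 15288 features. Tests were two-sided, with Benjamini-Hochberg adjustment over all features at 0.05. Fold changes are MAGL Mye-/- minus MAGL fl/fl on that scale. Alternatives were other pseudocounts, filters, scalings and limma settings, age, each library left out, edgeR 4.0.16, DESeq2 1.42.0 and limma-voom. P-values assume 1 mouse per library. The 9 members and the lists were chosen with earlier results of these data known. Besides the members, the text names 8 adaptor, kinase, scaffold and phosphatase genes, the features between clustered members, the 2 genes with the smallest p in each list without a call, and the 2 most similar profiles per member. Il12a, Csf2, Colec12, Sap130 and the single markers were named after their values were seen. Lengths and strands came from GENCODE M21 (GRCm38), upstream sequences from RefSeq (GRCm38.p6).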

Additional observations from a re-analysis of the deposited data

Results flagged for a closer look

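In 18 groups of values (9 genes in 2 genotypes), 2 held a library far from the rest by Dixon's criterion, which chance meets in about 1 in 20 groups. Clec4d was at 21491 normalized reads in MAGL Mye-/- S8, where the next library of that group was at 15332 and the lowest at 13571. Clec4a1 was at 14164 normalized reads in MAGL fl/fl S1, where the next library of that group was at 10452 and the lowest at 9748. Without S1 the log2 fold change of Clec4a1 was 0.09, against -0.03 with all libraries.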

How the results depend on the processing

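No paired analysis was possible because the groups share no replicate numbers. Of 216 values of single genes under 24 alternatives, 203 kept their direction and side of the threshold. Clec7a alone changed side, passing with DESeq2, which called 1 of the 9 genes and 2 genes of the pathway and comparison lists (Prkcd and Il1b), where limma called 0 of each and gave 2 of the 9 an unadjusted p under 0.05. Every leave-one-out fit also called 0 of each. Without 1 library the log2 fold change of Clec7a ran from 0.49 to 0.77 and its adjusted p from 0.120 to 0.437. Directions turned for 3 genes that lay near 0. Clec4a1 was at 0.0126 with quantile normalization and 0.0876 without S1 and S3, and ran from -0.0976 to 0.0890 without 1 library, turning without MAGL Mye-/- S8 or S9 or MAGL fl/fl S1. Clec4a2 was at 0.0202 with quantile normalization, 0.173 with age in the fit or in 11-week-old mice, and 0.0888 without S1 and S3, and ran from -0.113 to 0.0387 without 1 library, turning without MAGL Mye-/- S10 or MAGL fl/fl S3. Clec4a3 was at -0.0594 without S1 and S3. The cause was not tested. Over all features 3 were called, against 123 with DESeq2, 21 without an intensity trend, 17 with a pseudocount of 8, 12 among features with a mean of at least 500, 9 with robust limma or without S1 and S3, 8 with quantile normalization or limma-voom, 6 with TMM scaling, 5 with array weights, 0 with age in the fit or in 11-week-old mice, and 0 to 20 without 1 library.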
